A study of Mus musculus with 36 samples.

Results

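The p53 targets of cell cycle arrest and feedback described here are 10 genes: *Cdkn1a*, *Ccng1*, *Mdm2*, *Mdm4*, *Btg2*, *Ppm1d*, *Plk2*, *Gtse1*, *Zmat3* and *Sesn2*. They were chosen by name, with no measured value in the rule, though earlier results of these data were known. All 10 were found among the 46603 genes of the count tables of a *Chd8* study in the mouse embryonic forebrain. Neocortex of single E12.5 embryos was sequenced in 4 genotypes with 3 libraries each: wildtype Chd8+/+, heterozygous Chd8+/-, Chd8neo/neo with a pair of neo alleles, and Chd8neo/- with 1 neo and 1 null allele. The neo allele holds a selection cassette next to exon 3 that lowers *Chd8* expression, so Chd8neo/neo is a mild and Chd8neo/- a severe hypomorph, and both are models of reduced and not absent CHD8. Telencephalic vesicles (the labels say cortex) at E10.5 came from conditional knockouts (cKO; sox1-Cre; Chd8f/f) and controls (Ctrl), with 3 libraries each and 2 embryos pooled per library. The Cre acts in the early neuroepithelium and not in the other cells of the tissue. The labels describe the Ctrl group as a mix of Chd8f/f and Chd8 f/+ embryos, without saying which library holds which. They name no Cre for Ctrl, so the presence of Cre and the deletion of *Chd8* cannot be told apart in cKO against Ctrl. All mice were on a C57BL/6J background, and the 1 group of Chd8+/+ embryos is the control of all 3 mutant genotypes at E12.5.

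The transcription factor p53 is kept low in unstressed cells by MDM2, a ubiquitin ligase that p53 itself induces, and by its relative MDM4. When DNA damage or other stress frees p53 from them, it induces genes that stop the cell cycle, genes that start cell death, and genes that switch p53 off again. CHD8, a chromatin remodeller, has been described to bind p53 and to hold back its target genes in early mouse embryos. The comparisons below ask which of the arrest and feedback genes differed when CHD8 protein was lowered by steps at E12.5. They also ask which differed when *Chd8* was deleted from the neuroepithelium by E10.5.

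Total counts per library ranged from 38774591 to 61051667 at E12.5 and from 49632937 to 68488879 at E10.5, where each cKO library (59283998 or more) was deeper than each Ctrl library (55190000 or fewer). *Chd8* itself was lower in every mutant library than in every control library, with 171 ± 12.01 CPM (SD, n = 3) in Ctrl against 120.5 ± 4.78 CPM in cKO, and with 237 CPM in Chd8+/+ against 167, 208.9 and 149 CPM in Chd8+/-, Chd8neo/neo and Chd8neo/- on average. CPM are counts relative to library size, with TMM scaling. Counts cover the whole gene, also the exons that stay in the null alleles, so these values do not measure the protein. *Chd8* was higher in Chd8neo/neo, which has no null allele, than in Chd8+/- (log2 fold change 0.33, edgeR adjusted p = 0.00897). The paper reports the opposite order for CHD8 protein, and also for *Chd8* transcripts measured by quantitative RT-PCR in younger embryos. All 8 markers of the dorsal telencephalon were detected in every library, with a summed level of at least 1405 CPM. Markers of other cells moved with the cKO: the summed level of 8 genes of mesenchyme and meninges was 984 to 1141 CPM in cKO and 776 to 858 CPM in Ctrl, that of 6 microglia and macrophage genes was 27.2 to 28.8 CPM against 21.4 to 25.3 CPM, and none of these genes was at 0. Among the E12.5 libraries Chd8+/- replicate 2 stood apart, with 1134 CPM of the mesenchyme genes and 92.6 CPM of 7 diencephalon and midbrain genes, and no member was called in Chd8+/- with or without it. Ventral telencephalon markers summed to 19.4 to 29.3 CPM in cKO and 26.8 to 53.9 CPM in Ctrl. The part of these cells in the results below was not tested.

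At E10.5, 8 of the 10 members were higher in cKO than in Ctrl, 1 was lower and 1 did not pass the test. A gene is called here when its adjusted p is under 0.05 (edgeR's quasi-likelihood test, Benjamini-Hochberg over the 18435 genes tested at E10.5). Over all genes tested, 5.75% were called higher and 5.70% lower. These 2110 genes became 951 without Ctrl replicate 3, 538 without cKO replicate 2 and 826 without cKO replicate 3, while 8 to 9 members were called without any 1 library. The rises ran from 14.96-fold for *Cdkn1a*, over 6.12-fold for *Ccng1*, 4.30-fold for *Sesn2* and 2.78-fold for *Zmat3*, down to 1.17-fold for *Ppm1d*. *Mdm4* was the member that fell, and *Btg2* the one that was not called. The median log2 fold change was 0.85 over the 10 members and -0.0019 over all genes tested. In tissue samples like these, more cells with a transcript and more transcript per cell cannot be told apart.

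**Figure D1:**
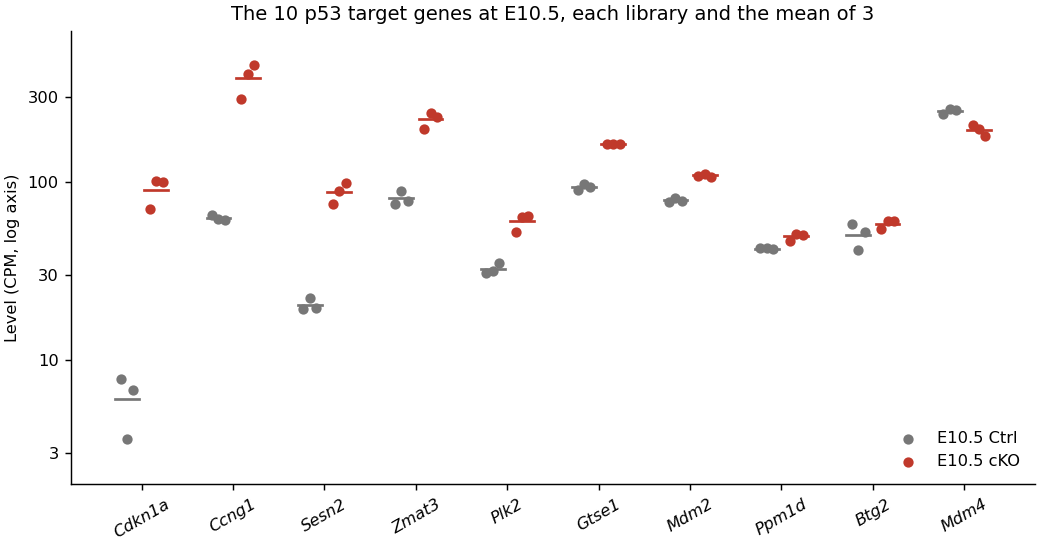
Level of each of the 10 genes (CPM, log axis) in the 3 Ctrl (grey) and 3 cKO (red) libraries at E10.5; points are libraries and bars are means of 3. For *Mdm4* every cKO library lies below every Ctrl library, and for *Btg2* the groups overlap.

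Gene positions are those of GRCm38 (Ensembl), and no member shares exon bases with another gene. Among the genes that hold back the cell cycle, *Cdkn1a* (ENSMUSG00000023067, chr17:29090979-29100722, + strand), which encodes the CDK inhibitor p21, had 7.74, 3.56 and 6.75 CPM in the Ctrl libraries and 70.3, 100.3 and 100.2 CPM in the cKO libraries. The lowest cKO library was thus far above the highest Ctrl library. These levels rest on 179 to 405 reads in Ctrl and 4169 to 6746 reads in cKO. The log2 fold change was 3.90 (SE 0.33, 95% interval 3.03 to 4.77, edgeR adjusted p = 0.00511). *Cdkn1a* also had the widest relative spread of the members in Ctrl, with an SD of 36.3% of the mean.

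*Plk2* (ENSMUSG00000021701, chr13:110395044-110400844, + strand) encodes a polo-like kinase that acts on centrioles and, in neurons, on synapses. It had 30.6, 31.4 and 35.1 CPM in Ctrl and 51.9, 63.7 and 63.96 CPM in cKO. All cKO libraries were higher, by a log2 fold change of 0.89 with an SE of 0.09 (edgeR adjusted p = 0.000283). *Gtse1* (ENSMUSG00000022385, chr15:85859707-85876572, + strand), a microtubule-associated protein of the G2 and S phases that also carries p53 out of the nucleus, had 90.2, 96.5 and 93.3 CPM in Ctrl and 162.9, 163.5 and 162.8 CPM in cKO. The 3 cKO libraries differed from each other by less than 1 CPM, and the log2 fold change was 0.81 with an SE of 0.054 (edgeR adjusted p = 2.10e-05).

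*Btg2* (ENSMUSG00000020423, chr1:134075170-134079120, - strand), an antiproliferative factor that also marks neurogenic divisions in the cortex, had 58.2, 41.2 and 51.9 CPM in Ctrl and 54.2, 60.5 and 59.7 CPM in cKO. The first Ctrl library was above the first cKO library, so the groups overlapped. Its log2 fold change was 0.21 with an SE of 0.11 (edgeR adjusted p = 0.283), with a 95% interval from -0.05 to 0.46. An adjusted p above the threshold does not show that *Btg2* stayed the same.

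The genes that act back on p53 did not all move in 1 direction. *Mdm2* (ENSMUSG00000020184, chr10:117688888-117710758, - strand) had 76.8, 81.2 and 77.6 CPM in Ctrl and 107.9, 110.9 and 106.9 CPM in cKO, a log2 fold change of 0.47 with an SE of 0.055 (edgeR adjusted p = 0.000594). All cKO libraries were higher and the spread within each group was narrow. *Ppm1d* (ENSMUSG00000020525, chr11:85311244-85347066, + strand), the phosphatase WIP1 that removes activating phosphates from p53 and from the kinases above it, had 42.5, 42.1 and 41.7 CPM in Ctrl and 46.6, 51.1 and 50.1 CPM in cKO. Its rise was the smallest that was called, with a log2 fold change of 0.23 with an SE of 0.062 (edgeR adjusted p = 0.0385), and 7 of 12 alternative analyses, among them each sequencing run taken alone, did not call it. *Mdm4* (ENSMUSG00000054387, chr1:132959484-133030561, - strand), the partner of MDM2 that masks the activation domain of p53, had 241, 257 and 252 CPM in Ctrl and 206.9, 197 and 180.1 CPM in cKO. Here every cKO library was below every Ctrl library, and the log2 fold change was -0.36 with an SE of 0.064 (edgeR adjusted p = 0.00589). A pseudogene, *Mdm4-ps*, carries a similar name, and reads of the pair could have been split in the authors' counting.

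*Ccng1* (ENSMUSG00000020326, chr11:40748552-40755311, - strand) encodes cyclin G1, which brings the phosphatase PP2A to MDM2 and so belongs to the feedback as well as to the arrest. It had 64.7, 61.5 and 61.1 CPM in Ctrl and 292, 402 and 452 CPM in cKO. Every cKO library was far above every Ctrl library. Its log2 fold change was 2.61 with an SE of 0.16 (edgeR adjusted p = 0.000388). The spread was wider in cKO, with an SD of 21.5% of the mean, than in Ctrl with 3.18%.

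The remaining members act on growth and on RNA. *Sesn2* (ENSMUSG00000028893, chr4:132492032-132510501, - strand) encodes a sestrin, a stress protein that restrains mTORC1, and had 19.2, 22.3 and 19.4 CPM in Ctrl and 74.6, 88.3 and 98.9 CPM in cKO (log2 fold change 2.105, SE 0.11, edgeR adjusted p = 8.47e-06). *Zmat3* (ENSMUSG00000027663, chr3:32334792-32366014, - strand), a zinc finger protein that binds RNA and regulates splicing, had 75.3, 88.8 and 78.1 CPM in Ctrl and 198, 243 and 232 CPM in cKO (log2 fold change 1.47, SE 0.087, edgeR adjusted p = 1.46e-05). For both genes the groups were far apart. The first cKO library was the lowest of its group for *Cdkn1a*, *Ccng1*, *Sesn2*, *Zmat3*, *Plk2*, *Ppm1d* and *Btg2*. Over the 12 alternative analyses, among them the fits without each library, the log2 fold changes ranged from 3.64 to 4.12 for *Cdkn1a*, 2.47 to 2.78 for *Ccng1*, 2.01 to 2.21 for *Sesn2* and 1.42 to 1.56 for *Zmat3*.

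The order of the members' levels was set against gene length by dividing CPM by the length of the exons in kb. In Ctrl, *Gtse1* was highest with 34.3 ± 1.17 CPM per kb (SD, n = 3) and *Cdkn1a* lowest with 2.71 ± 0.98 CPM per kb. Between them, *Btg2* (18.4), *Ccng1* (17.8) and *Mdm4* (16.9 CPM per kb) were neighbours that did not differ beyond their SDs. In cKO, *Ccng1* was highest with 109 ± 23.4 CPM per kb, *Gtse1* came next with 59.9 ± 0.143 and *Cdkn1a* followed with 40.6 ± 7.77 CPM per kb. *Sesn2*, *Mdm2*, *Plk2*, *Btg2* and *Zmat3* followed between 25.1 and 19.6 CPM per kb, each within the SDs of its neighbour, and *Mdm4* was lowest with 13.1 ± 0.916 CPM per kb.

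**Figure D2:**
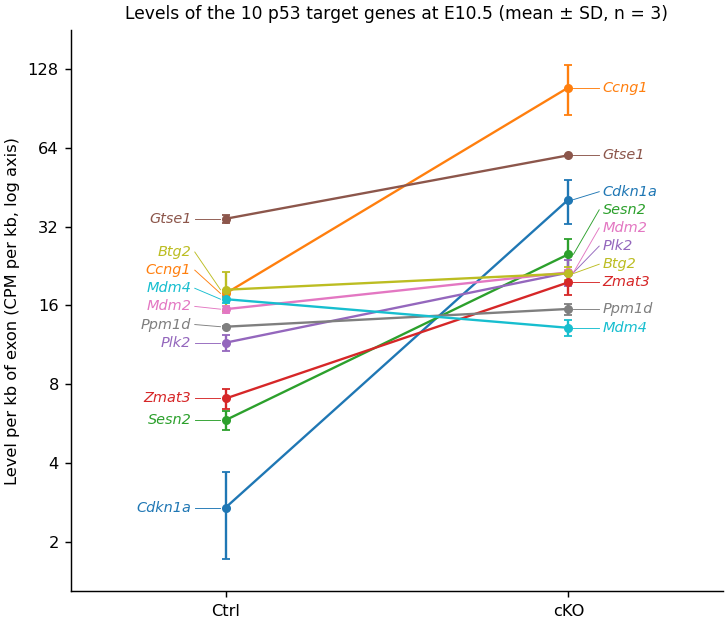
Mean level per kb of exon (CPM per kb, log axis) of the 10 genes in Ctrl and cKO at E10.5, with bars of 1 SD over 3 libraries. *Cdkn1a* goes from the lowest place (2.71) to the third (40.6), *Ccng1* to the highest (109), and *Mdm4* to the lowest (13.1).

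The sequences at the transcription starts of *Cdkn1a*, *Ccng1* and *Gtse1* are shown because they hold a p53 response element as searched here, and because 2 of these genes had the largest rises of the set. RefSeq (GRCm38.p6) gave 12 windows of 300 bases, from 250 bases before to 50 after a start, for 9 of the 10 members, and *Zmat3* was not among them. The p53 response element was searched by name as a pair of half-sites of 10 bases with at most 1 base between them, on both strands at once since a half-site reads the same on each. At most 1 mismatch was allowed in the pair, and never in the invariant C and G at the core of a half-site. This limit was chosen after matches were seen. A match was found in 0.11% of 32851 windows of all genes and in 3 member windows, 1 each of *Cdkn1a*, *Ccng1* and *Gtse1*. With up to 13 bases between the half-sites the share of all windows was 0.627% and the same number of members, 3, had a match. The *Cdkn1a* sequence is chr17:29090729-29090978 on the + strand, with the match 51 to 32 bases before the transcription start of its window. The *Ccng1* sequence is chr11:40755287-40755536 on the - strand, with the match 195 to 176 bases before the start. For *Gtse1* only the match is printed, chr15:85859945-85859964 on the + strand, which covers the transcription start of its window. The windows at another start of *Cdkn1a* (chr17:29093519-29093818) and of *Gtse1* (chr15:85859457-85859756) held no match. Capitals mark the matches. A match describes letters and is not a measurement of p53 binding.
Cdkn1a: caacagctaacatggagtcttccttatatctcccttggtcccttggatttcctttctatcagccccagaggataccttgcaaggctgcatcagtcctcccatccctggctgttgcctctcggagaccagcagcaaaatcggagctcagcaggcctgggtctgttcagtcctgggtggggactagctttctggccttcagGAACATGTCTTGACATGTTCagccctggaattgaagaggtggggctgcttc
Ccng1: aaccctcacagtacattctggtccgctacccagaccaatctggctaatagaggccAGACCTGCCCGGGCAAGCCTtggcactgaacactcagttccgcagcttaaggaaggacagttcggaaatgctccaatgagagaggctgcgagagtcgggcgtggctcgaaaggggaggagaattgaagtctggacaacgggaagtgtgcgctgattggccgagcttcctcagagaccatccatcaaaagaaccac
Gtse1: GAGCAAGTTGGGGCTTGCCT

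At E12.5 the differences between the 4 genotypes were small. The ratio of the highest to the lowest genotype mean was between 1.06 for *Btg2* and *Zmat3* and 1.25 for *Plk2*, with 1.13 for *Cdkn1a*. In Chd8+/- neocortices none of the 10 members was called by edgeR or by DESeq2 and none had an unadjusted p under 0.05, while 0.0213% of the 18810 genes tested at E12.5 were called in either direction. *Cdkn1a* had 21.7, 23.3 and 20.1 CPM in Chd8+/+ and 22.4, 19.9 and 21.03 CPM in Chd8+/-, with full overlap and a log2 fold change of -0.04 (95% interval -0.19 to 0.11, edgeR adjusted p = 0.969). The largest difference in size was that of *Sesn2*, with a log2 fold change of -0.13 (95% interval -0.31 to 0.05, edgeR adjusted p = 0.866).

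**Figure D3:**
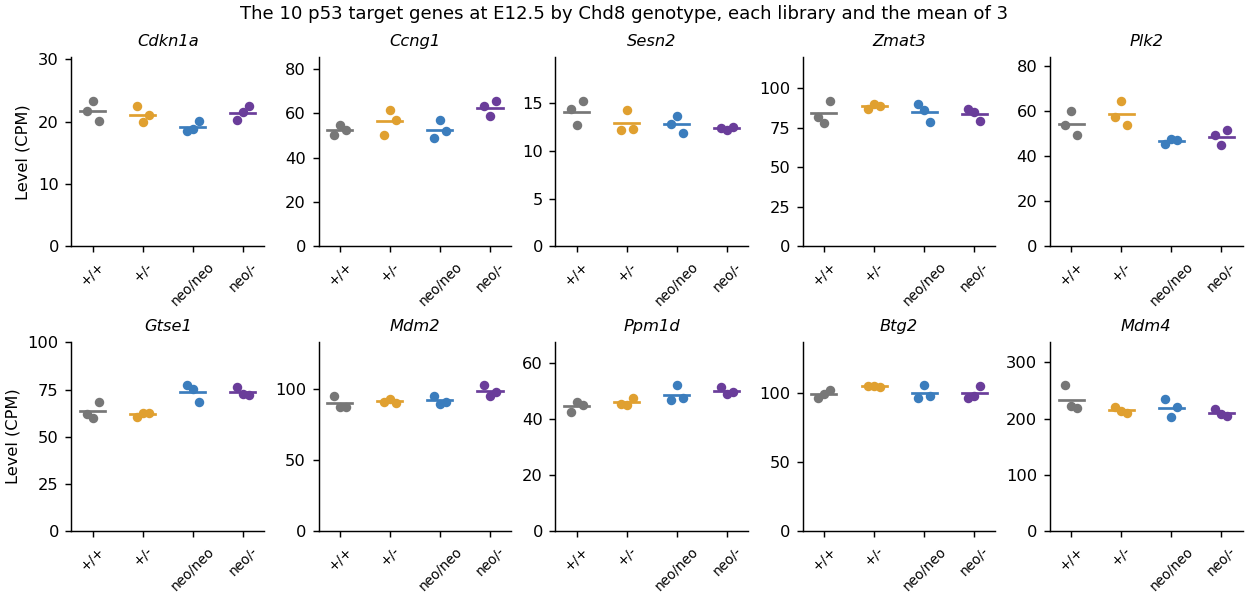
Level of each gene (CPM, axes from 0) in the 3 libraries of each *Chd8* genotype at E12.5, with bars at the mean of 3. The libraries of the 4 genotypes lie close together for all 10 genes; *Gtse1* is higher in Chd8neo/neo and Chd8neo/- and *Ccng1* in Chd8neo/-.

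In Chd8neo/neo neocortices 1 member was called higher and none lower, against 3.71% and 4.45% of all genes. These shares rest on 1534 genes, a number that fell to between 435 and 800 without Chd8neo/neo replicate 1 or 2 or Chd8+/+ replicate 2 or 3, and rose to 2605 without Chd8neo/neo replicate 3. The member called was *Gtse1*, with 62.3, 60.1 and 68.5 CPM in Chd8+/+ and 77.2, 75.3 and 68.5 CPM in Chd8neo/neo. The lowest mutant library fell just below the highest Chd8+/+ library, so the groups touched. The log2 fold change was 0.21 with an SE of 0.056 (edgeR adjusted p = 0.0355), and the call held in 9 of 20 alternative analyses. *Plk2* had 53.6, 60.0 and 49.4 CPM in Chd8+/+ and 45.4, 47.5 and 47.1 CPM in Chd8neo/neo, all lower, but its log2 fold change of -0.22 did not pass (SE 0.078, edgeR adjusted p = 0.0989). *Ppm1d* had 42.4, 46.2 and 45.01 CPM in Chd8+/+ and 46.6, 51.9 and 47.3 CPM in Chd8neo/neo, all higher, and was not called either (log2 fold change 0.13, SE 0.053, edgeR adjusted p = 0.149). With *Gtse1*, *Plk2* and *Cdkn1a* it was among the 4 members at an unadjusted p under 0.05, as were 4746 of 18810 genes. *Cdkn1a*, with 18.4, 18.8 and 20.2 CPM in Chd8neo/neo, had a log2 fold change of -0.18 (95% interval -0.33 to -0.03, edgeR adjusted p = 0.1204).

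In Chd8neo/- neocortices 2 members were called higher and none lower, against 5.48% and 5.99% of all genes tested. These 2158 genes became 1015 to 1202 without Chd8+/+ replicate 3 or any 1 of the Chd8neo/- libraries. *Ccng1* had 50.4, 54.9 and 52.7 CPM in Chd8+/+ and 63.1, 58.9 and 65.7 CPM in Chd8neo/-. All mutant libraries were higher, by a log2 fold change of 0.25 with an SE of 0.073 (edgeR adjusted p = 0.0414). *Gtse1* had 76.6, 72.4 and 72.1 CPM in Chd8neo/-, also above each Chd8+/+ library, with a log2 fold change of 0.21 with an SE of 0.056 (edgeR adjusted p = 0.0271). In the feedback arm, *Mdm2* had 94.7, 87.5 and 87.5 CPM in Chd8+/+ and 102, 95.1 and 98.1 CPM in Chd8neo/- (log2 fold change 0.13, edgeR adjusted p = 0.0659). *Ppm1d* had 42.4, 46.2 and 45.01 CPM in Chd8+/+ and 51.3, 48.7 and 49.7 CPM in Chd8neo/- (log2 fold change 0.17, edgeR adjusted p = 0.0592). For both, every mutant library was above every Chd8+/+ library without a call by edgeR, while DESeq2 called them as well and so gave 4 members. *Mdm4* had 259, 223 and 219 CPM in Chd8+/+ and 216, 208 and 204 CPM in Chd8neo/- (log2 fold change -0.16, edgeR adjusted p = 0.132). *Sesn2* had 14.3, 12.6 and 15.2 CPM in Chd8+/+ and 12.4, 12.2 and 12.5 CPM in Chd8neo/- (log2 fold change -0.19, edgeR adjusted p = 0.172). Here every mutant library was below every Chd8+/+ library, and neither tool called the difference.

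The call of *Ccng1* in Chd8neo/- held in 12 of 20 alternative analyses and that of *Gtse1* in 15 of 20. Without any 1 of the Chd8neo/- libraries no member was called, and with sex-linked expression as a term *Gtse1* alone was called. The 3 Chd8neo/- embryos were all Y-positive by their transcripts, while the labels give no sex. Why the *Ccng1* call was lost was not tested. *Cdkn1a* had 20.2, 21.6 and 22.5 CPM in Chd8neo/-, within the Chd8+/+ range, and a log2 fold change of -0.02 (95% interval -0.17 to 0.13, edgeR adjusted p = 0.908). *Zmat3* (-0.01) and *Btg2* (0.01) were also near 0 on the log2 scale. The median log2 fold change of the members was 0.00073, against 0.00107 over all genes tested. The comparisons of Chd8+/-, Chd8neo/neo and Chd8neo/- share the Chd8+/+ libraries. Markers of other cells moved with genotype as well: 6 erythroid genes summed to 4304 to 6863 CPM in Chd8neo/- and 2982 to 3667 CPM in Chd8+/+, and 7 neuron genes to 3154 to 3664 CPM in Chd8neo/neo and 3817 to 4476 CPM in Chd8+/+, with no gene of either list at 0. Their part in these differences was not tested.

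**Figure D4:**
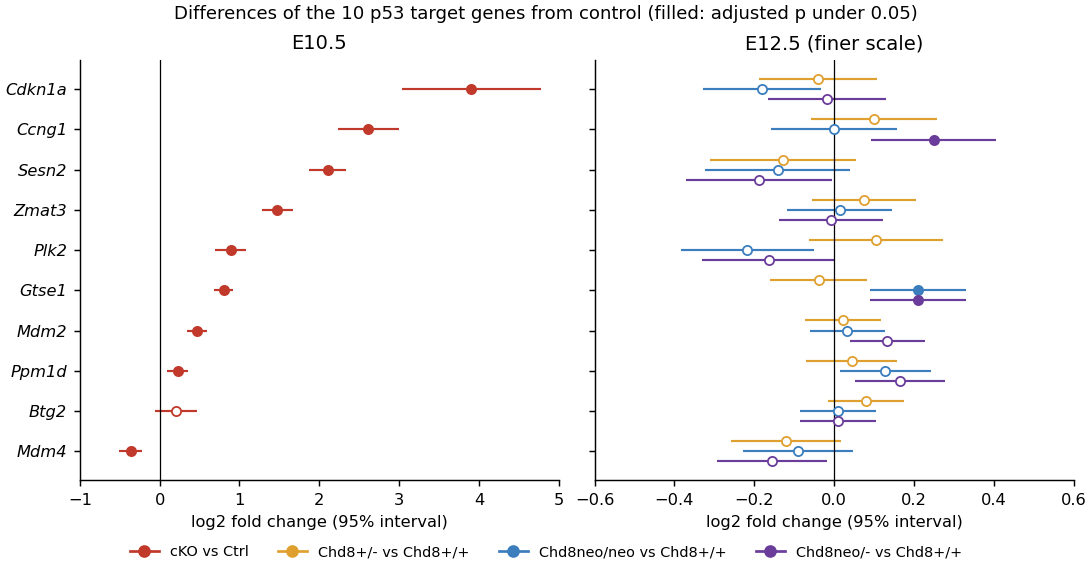
Log2 fold changes of the 10 genes with 95% intervals, cKO against Ctrl at E10.5 on the left and the 3 mutant genotypes against Chd8+/+ at E12.5 on the right, on a finer scale; filled points have an adjusted p under 0.05. Values reach 3.90 at E10.5, while at E12.5 all lie between -0.22 and 0.25.

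The mutant genotypes were also set against each other. Between Chd8neo/neo and Chd8+/-, *Gtse1* was higher in the hypomorph (60.6, 62.7 and 62.5 CPM in Chd8+/-, log2 fold change 0.25, SE 0.056, edgeR adjusted p = 0.0269) and *Plk2* lower (57.2, 64.5 and 53.5 CPM in Chd8+/-, log2 fold change -0.32, SE 0.078, edgeR adjusted p = 0.0338), where 2.00% and 3.28% of all genes were called higher and lower. The 994 genes behind these shares became 23 to 62 without Chd8neo/neo replicate 1 or 2 or Chd8+/- replicate 1, 308 without Chd8+/- replicate 3, 526 to 650 without Chd8+/+ replicate 3 or Chd8neo/- replicate 1 or 2, and 2100 without Chd8neo/neo replicate 3. The groups did not overlap for either gene. With the replicate number as a block, *Plk2* was no longer called and *Gtse1* was the 1 member called. Between Chd8neo/- and Chd8neo/neo no member was called by edgeR or DESeq2 while 0.0159% of all genes were called. An unadjusted p under 0.05 was seen for 3 of the 10 members and for 1585 of 18810 genes. These members were *Ccng1* (log2 fold change 0.25, edgeR adjusted p = 0.479), *Cdkn1a* (0.16, edgeR adjusted p = 0.567) and *Mdm2* (0.10, edgeR adjusted p = 0.574).

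The cKO effect and the Chd8neo/- effect were compared within 1 fit of all 18 libraries. The difference was called higher for 7 members and lower for none, against 3.90% and 2.89% of 19565 genes. These 1329 genes became 533 to 786 without Ctrl replicate 1, cKO replicate 2 or 3, Chd8+/+ replicate 3 or any 1 of the Chd8neo/- libraries, while the 7 members were called in each of these fits. On the log2 scale it was 3.92 for *Cdkn1a* (SE 0.28), 2.36 for *Ccng1* (SE 0.17), 2.29 for *Sesn2* (SE 0.14), 1.48 for *Zmat3* (SE 0.11), 1.05 for *Plk2* (SE 0.13), 0.59 for *Gtse1* (SE 0.072) and 0.33 for *Mdm2* (SE 0.061). For *Mdm2* the edgeR adjusted p was 0.00347, the largest of the 7. *Ppm1d* had a difference of 0.06 (95% interval -0.10 to 0.22, edgeR adjusted p = 0.716). *Mdm4* (-0.21, edgeR adjusted p = 0.183) and *Btg2* (0.19, edgeR adjusted p = 0.384) did not pass. Stage, allele, presence of Cre, tissue piece, pooling of embryos and count table differ together in this comparison and cannot be told apart.

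Levels in the controls of the 2 stages are given without a test, since the tables were normalized separately. Per kb of exon, *Btg2* was highest in Chd8+/+ at E12.5 with 36.1 ± 1.01 CPM per kb, followed by *Gtse1* (23.4 CPM per kb), and *Sesn2* was lowest with 4.05 ± 0.377 CPM per kb. From *Plk2* (19.4) over *Mdm2* (17.7), *Mdm4* (15.8) and *Ccng1* (14.99) to *Ppm1d* (14.03 CPM per kb), neighbours did not differ beyond their SDs. *Cdkn1a* was 6.02 ± 2.18 CPM in Ctrl at E10.5 and 21.7 ± 1.603 CPM (SD, n = 3) in Chd8+/+ at E12.5, a ratio of 3.61. The ratio was 1.97 for *Btg2* and 1.68 for *Plk2*, while *Gtse1* (0.682) and *Sesn2* (0.693) were lower at E12.5. *Cdkn1a* in cKO at E10.5 (90.3 ± 17.3 CPM) was above all E12.5 libraries as well.

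The other p53 genes were measured by lists. Of 16 p53 targets of cell death, all tested at E10.5, 13 were called higher in cKO and none lower, with a median log2 fold change of 0.98. The 5 with the smallest adjusted p were *Phlda3*, which blocks AKT at the membrane (log2 fold change 2.47), the nuclease gene *Aen* (1.03), the TRAIL receptor gene *Tnfrsf10b* (1.31), the ectodysplasin receptor gene *Eda2r* (3.76) and *Pidd1* (0.82), which builds the PIDDosome. In Chd8neo/- 4 of 15 tested were called higher, among them *Pidd1* (0.42) and *Phlda3* (0.40), with 1 to 5 over the alternative analyses. Of 21 other p53 targets tested at E10.5, 7 were called higher and 2 lower, with a median of 0.18. Those with the smallest adjusted p were *Ddit4l*, an mTORC1 inhibitor (1.95), *Zfp365* (2.21), the spindle gene *Psrc1* (0.56), the polymerase gene *Polk* (0.56) and the repair nuclease gene *Ercc5* (0.43). *Sesn1*, the relative of *Sesn2*, was among those that fell (-0.30).

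The transcript of p53 itself was not called in cKO. *Trp53* had 185, 224 and 205 CPM in Ctrl and 227, 216 and 210.3 CPM in cKO, which overlap, with a log2 fold change of 0.09 with an SE of 0.073 (edgeR adjusted p = 0.473). Of 13 genes of this list, *Mdc1*, a scaffold of DNA damage foci, was called higher (0.46) and the checkpoint kinase gene *Chek1* lower (-0.20), while *Atm* (0.12), *Trp53bp1* (-0.07) and *Trp63* (0.68) were not called and the median was 0.0011. In Chd8neo/- *Mdc1* was also called higher (0.54), together with *Chek2*, and *Trp53bp1* lower (-0.16), and the calls numbered 1 to 3 over the alternative analyses. *Trp53* had a log2 fold change of -0.05 there (edgeR adjusted p = 0.603).

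Genes of the same families as the members moved in both directions. Of 18 relatives tested at E10.5, 2 were called higher and 3 lower, with a median log2 fold change of -0.11. *Cdkn1b*, which encodes the CDK inhibitor p27, fell from 69.3 CPM in Ctrl to 45.5 CPM in cKO on average (log2 fold change -0.61, edgeR adjusted p = 0.000392), opposite to *Cdkn1a*. It also fell in Chd8neo/- (-0.39, edgeR adjusted p = 9.23e-05), where *Cdkn1a* was not called, and so did the phosphatase gene *Ppm1e* (-0.23), with 1 to 4 relatives called over the alternative analyses. The 5 calls among relatives at E10.5 were 1 to 6 over the alternative analyses.

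Genes of the cell cycle showed small differences. Of 26 genes of G2 and mitosis, 1 was called in cKO, the kinesin gene *Kif11* (-0.21), and the median was -0.07, with 0 to 6 called over the alternative analyses and 5 by DESeq2. In Chd8neo/- 2 were called higher, *Cdc20* (0.24) and *Ube2c* (0.18), both activators or parts of the mitotic ubiquitin machinery, with a median of 0.08 and 1 to 5 called over the alternative analyses. The difference between the effects was called lower for 8 of the 26, with 1 to 11 over the alternative analyses. Of 22 genes of G1 and S phase, 3 were called lower in cKO, among them *Cdk2* (-0.23) and the ribonucleotide reductase gene *Rrm1* (-0.29), and 2 higher in Chd8neo/-, the replication licensing genes *Cdt1* (0.29) and *Mcm6* (0.18). These calls numbered 0 to 6 and 0 to 5 over the alternative analyses.

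Some members are known to be induced by other routes, *Sesn2* by ATF4, *Plk2* and *Btg2* with the immediate early genes, and *Btg2* in neurogenic progenitors. Apart from the members, 1 of 14 ATF4 stress genes was called in cKO, *Atf4* itself, which was lower (-0.40, edgeR adjusted p = 0.00657), and the median was -0.10. Of 13 immediate early genes tested none was called by edgeR or DESeq2, with a median of -0.0093 and 0 to 2 called over the alternative analyses, and 2 had an unadjusted p under 0.05, as had 5049 of all 18435 genes. Among 12 genes of neurogenic progenitors none was called by edgeR, 1 by DESeq2 and 2 had an unadjusted p under 0.05, with a median of -0.16 and 0 to 6 called over the alternative analyses. In Chd8neo/- the immediate early gene *Ier2* was called higher (0.28), and none of the ATF4 or neurogenic genes was called by either tool. Over the alternative analyses 0 to 1 ATF4 genes were called. At an unadjusted p under 0.05 there were 4 of the ATF4 genes and 0 of the neurogenic genes, beside 4991 of 18810 genes in all. The part of these other routes in the differences of the members was not tested.

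**Figure D5:**
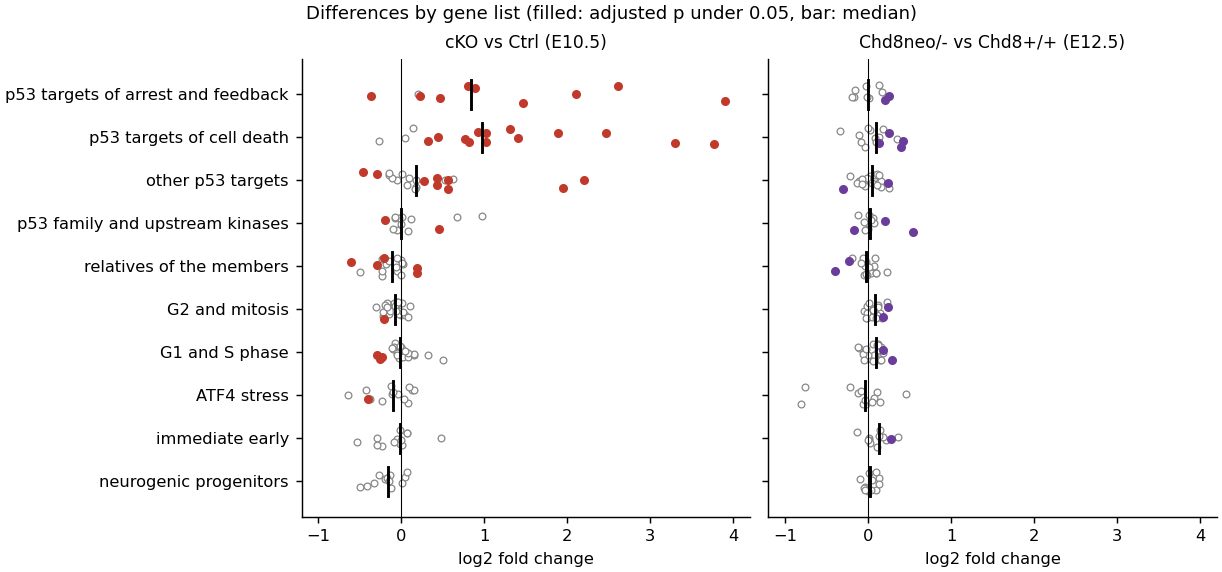
Log2 fold changes of the genes of each list in cKO against Ctrl (left) and Chd8neo/- against Chd8+/+ (right); each point is a gene, filled where the adjusted p is under 0.05, and black bars are medians. In cKO the medians of the arrest and feedback genes (0.85) and of the cell death genes (0.98) lie apart from those of the other lists, which are between -0.16 and 0.18.

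The genes whose pattern was most like that of *Cdkn1a* were found by Pearson's r of log2 CPM over the 18 libraries, each table centred on its own mean, among 17702 genes tested at both stages. They were *Inka2* (0.993), *Svop* (0.981), *Trp53inp1* (0.976), *Ak1* (0.974) and *Ddit4l* (0.974). All 5 were called higher in cKO, with log2 fold changes of 2.89, 3.32, 1.89, 1.99 and 1.95 in the same order. Since *Cdkn1a* rose in cKO, the choice by r favours genes that rose there, and these calls are no separate result. The value of *Svop* rests on 14 to 49 reads in Ctrl. The 3 cKO libraries stand apart from the other 15, and the correlation over all libraries includes that gap. Within the 12 libraries at E12.5 r was 0.08 for *Inka2*, 0.63 for *Svop*, 0.67 for *Trp53inp1*, 0.81 for *Ak1* and 0.28 for *Ddit4l*. Of the members, *Ccng1* was at place 6 (0.974), *Sesn2* at 11 (0.955) and *Zmat3* at 23 (0.945), and *Mdm4* was at 17490 (-0.80). Within the E12.5 libraries alone r was 0.14 for *Ccng1*, -0.29 for *Sesn2*, -0.58 for *Zmat3* and 0.04 for *Mdm4*.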

How the data were processed

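RNA of 18 libraries was sequenced as stranded (dUTP) paired-end reads on 2 runs each. The authors trimmed the reads (Trim Galore 0.4.1), aligned them to the mouse genome (TopHat2 2.1.0) and deposited raw read counts per gene (featureCounts 1.5.0) with Ensembl identifiers on GRCm38. The header of the E12.5 table shows no strand option, so reads of overlapping antisense genes may be counted together, and the options for E10.5 are not given in the sources used here. The E12.5 and E10.5 tables were counted and are normalized separately.

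The counts of both runs were summed per library. Genes were filtered with filterByExpr, scaled with TMM factors and tested with edgeR 4.0.16 (robust quasi-likelihood test, R 4.3.3), with the 12 E12.5 libraries in 1 fit, the 6 E10.5 libraries in another, and all 18 in a joint fit for the difference between effects. P-values were adjusted by Benjamini-Hochberg over all genes tested and called under 0.05. Library totals were 38774591 to 68488879 counts, and the lowest count of a member was 179. The study's methods state that replicates came from different litters, and no 2 libraries of the same group agreed within counting noise. The statistics were checked on simulated data with 1 spread for all genes and with changes larger than those of the members at E12.5. That check does not cover differences as small as those.

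Members and lists were chosen with earlier results of these data known. Named were all 10 members, *Chd8*, *Trp53*, from each other p53 list the 5 genes with the smallest adjusted p in cKO, from each further list up to 2 called genes in cKO and in Chd8neo/-, and the 5 genes most like *Cdkn1a* (prior count 2). A few further called genes of short counts were named after their values were seen. Alternatives were DESeq2 1.42.0, RLE scaling, no filter, each run alone, a block of replicate numbers, only the groups compared, a sex-linked term at E12.5 and each library left out. Labels give equal replicate numbers to all groups. Deviations from the group means correlated over 0.1 in every same-numbered pair only between Chd8neo/neo and Chd8+/- (0.108, 0.195 and 0.199), with no source for the pairing in the labels. The promoter search was added after the data were seen.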

Additional observations from a re-analysis of the deposited data

Results flagged for a closer look

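For 7 of the 10 arrest and feedback genes the cKO effect at E10.5 differed from the Chd8neo/- effect at E12.5 by a test of the difference itself (edgeR, adjusted over 19565 genes). On the log2 scale the cKO effect was larger by 3.92 for *Cdkn1a* (adjusted p = 2.58e-06), by 2.36 for *Ccng1* (adjusted p = 1.49e-06) and by 2.29 for *Sesn2* (adjusted p = 1.19e-08). For *Zmat3* it was larger by 1.48 (adjusted p = 1.19e-07) and for *Plk2*, whose value in Chd8neo/- was below 0, by 1.05 (adjusted p = 6.19e-05). *Gtse1*, called higher in both, differed by 0.59 (adjusted p = 6.60e-05), and *Mdm2* by 0.33 (adjusted p = 0.00347). Stage, allele, presence of Cre, tissue piece and pooling differ together between these effects and cannot be told apart.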

How the results depend on the processing

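In cKO, 8 to 9 members were called over 12 alternatives, and *Ppm1d* was the one lost, in 7 of them. The difference between the cKO and Chd8neo/- effects was called for 7 to 8 members over 25 alternatives, *Mdm4* being added without Chd8+/+ replicate 1. In Chd8+/-, and between Chd8neo/- and Chd8neo/neo, 0 were called in all 20 alternatives. In Chd8neo/neo, where 1 was called, 0 were called with the replicate block, with only the groups compared or with the sex-linked term, and 2 with run 2 alone (*Plk2* added). Leaving out 1 library gave 0 to 1, with 0 without Chd8+/+ replicates 1 or 2, Chd8+/- replicate 1, Chd8neo/neo replicates 1 or 2, or any Chd8neo/- replicate. In Chd8neo/-, where 2 were called, DESeq2 gave 4, and run 1 alone and the sex-linked term gave 1 each. Leaving out 1 library gave 0 to 2, with 0 without any Chd8neo/- replicate and 1 without Chd8+/+ replicate 1 (*Mdm2* in place of both), Chd8+/+ replicate 2 (*Ccng1*), Chd8+/+ replicate 3 or Chd8+/- replicate 3 (*Gtse1*). Between Chd8neo/neo and Chd8+/-, where 2 were called, the replicate block and run 1 alone gave 1 each, and only the groups compared and the sex-linked term gave 0. Leaving out 1 library gave 0 to 2, with 0 without Chd8+/- replicate 1 or Chd8neo/neo replicates 1 or 2, and 1 without Chd8+/- replicates 2 or 3 or Chd8neo/- replicate 1. The cause was not tested. The replicate block changed no other call of a member. No called member changed direction under any of these alternatives.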
